A study of Mus musculus with 10 samples.

Results

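The genes described here encode the nuclear subunits of respiratory chain complexes II, III and IV, cytochrome c, and complex V, the ATP synthase, in mouse calf muscle. A list of 42 subunit genes was drawn up by name, and each was taken from the array where a probe set carried that gene's symbol alone; 40 were found among the 22180 genes with such a probe set. These were 4 genes of complex II, 8 of complex III, the cytochrome c gene Cycs, 12 of complex IV and 15 of complex V. Uqcr10 and Cox6c, a complex III and a complex IV subunit, sit on probe sets that also carry another gene's symbol and were not analysed here. The carnitine group had 5 mice fed a natural ingredient diet with 1000 mg of L-carnitine added per kg, and the control group had 5 mice fed the same diet unsupplemented, which held less than 5 mg of carnitine per kg. All were male NMRI mice, an outbred stock, entered at 3 weeks of age, and gastrocnemius RNA from 30 mg of tissue went to 1 Affymetrix Mouse Gene 2.0 ST array per mouse. The 60 mice of the study were killed at 9, 15 or 18 months, and the labels do not say which age each array mouse had, so age may differ between arrays. The mice were housed 5 to a cage, and the labels do not link arrays to cages.

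Complex II, succinate dehydrogenase, oxidises succinate in the tricarboxylic acid cycle and passes its electrons to ubiquinone. Complex III passes them on to cytochrome c, and complex IV, cytochrome c oxidase, gives them to oxygen. Complexes III and IV pump protons across the inner mitochondrial membrane, and complex V uses the return flow to make ATP. Slow and oxidative muscle fibres are rich in mitochondria, and nuclear transcription factors such as NRF1, GABPA, YY1 and the oestrogen-related receptors are known to bind promoters of many of these genes. The study fed carnitine, which carries long-chain fatty acids into mitochondria, and by its title addressed the muscle transcriptome at advanced age.

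Promoters are shown for 5 genes, 1 for each complex and Cycs, so that motif matches can be seen beside values given below. All 5 have a match before the start. Promoter sequences from RefSeq (GRCm38.p6) were at hand for 33 of the 42 listed genes, in 36 windows of 300 bases, from 250 before to 50 after the annotated start. Each window was searched on both strands for 5 textbook motifs: GCGCA, any base and GCGC for NRF1, ACTTCCG for ETS factors such as GABPA, AAGATGGC for YY1, TGACGTCA for the cyclic AMP response element and AAGGTCA for the oestrogen-related receptors. The 250 bases before the start are printed 5′ to 3′ on the gene's strand, with motif matches in capitals.
Sdha promoter, chr13:74350241-74350490, minus strand: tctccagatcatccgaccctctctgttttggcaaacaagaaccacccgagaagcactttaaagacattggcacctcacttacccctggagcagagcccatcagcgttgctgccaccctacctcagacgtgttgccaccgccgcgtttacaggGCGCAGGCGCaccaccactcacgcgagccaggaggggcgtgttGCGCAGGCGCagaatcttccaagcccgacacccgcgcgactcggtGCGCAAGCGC
Uqcrh promoter, chr4:116075071-116075320, minus strand: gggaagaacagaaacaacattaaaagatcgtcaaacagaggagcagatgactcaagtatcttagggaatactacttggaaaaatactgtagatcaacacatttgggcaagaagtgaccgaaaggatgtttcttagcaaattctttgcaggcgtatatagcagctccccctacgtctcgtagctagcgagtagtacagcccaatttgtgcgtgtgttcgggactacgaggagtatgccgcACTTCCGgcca
Cycs promoter, chr6:50566570-50566819, minus strand: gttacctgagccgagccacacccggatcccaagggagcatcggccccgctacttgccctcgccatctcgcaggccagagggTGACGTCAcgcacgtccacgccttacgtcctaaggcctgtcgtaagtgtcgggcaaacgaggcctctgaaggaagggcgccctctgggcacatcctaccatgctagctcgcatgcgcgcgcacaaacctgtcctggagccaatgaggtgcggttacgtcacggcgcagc
Cox6a1 promoter, chr5:115348959-115349208, minus strand: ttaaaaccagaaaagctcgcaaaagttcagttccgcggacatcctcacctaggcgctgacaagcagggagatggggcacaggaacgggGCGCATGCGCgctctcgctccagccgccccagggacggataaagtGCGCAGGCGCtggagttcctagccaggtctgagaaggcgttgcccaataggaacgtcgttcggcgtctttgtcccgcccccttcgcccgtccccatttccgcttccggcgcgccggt
Atp5h promoter, chr11:115419920-115420169, minus strand: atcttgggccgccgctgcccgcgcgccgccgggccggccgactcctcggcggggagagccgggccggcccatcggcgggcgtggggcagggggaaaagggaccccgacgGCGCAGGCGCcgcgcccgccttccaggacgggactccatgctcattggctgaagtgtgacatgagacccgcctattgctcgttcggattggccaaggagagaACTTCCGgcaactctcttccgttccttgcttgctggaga
The 3 capital stretches of Sdha and both of Cox6a1 match the NRF1 motif, Uqcrh and the second stretch of Atp5h match the ETS motif, the first of Atp5h matches NRF1, and Cycs matches the cyclic AMP response element. Of the 36 windows, 27.8% held the NRF1 motif, against 4.6% of all 32851 promoter windows. The shares were 19.4% and 6.42% for the ETS motif, 8.33% and 2.75% for YY1, 5.56% and 1.79% for the cyclic AMP response element, and 13.9% and 4.72% for the oestrogen-related receptor motif. At least 1 of the 5 motifs was found in 61.1% of the windows, against 18.3% of all. These shares count matches in all 300 bases. Other windows, among them those of Sdhb, Cox7a1 and Atp5b, had no match in the 250 bases before the start. A match describes the letters only and does not show that a factor binds there.

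Levels are RMA values on the log2 scale, and differences are carnitine minus control on that scale. Muscle fibre genes, a check of the tissue label, had mean levels of 13.21 to 13.26 in carnitine mice and 13.13 to 13.23 in controls over 8 markers, all 8 above the median probe set level of 5.8. Markers of other cells were low for brown adipocytes (mean level of 4 markers 5.24 to 5.52 in carnitine and 5.30 to 5.50 in control mice) and for T cells (6 markers, 5.06 to 5.31 in carnitine and 5.15 to 5.84 in control mice). The means of 6 macrophage markers ran from 6.18 to 6.55 in carnitine and from 6.10 to 6.76 in control mice, and those of 6 adipocyte markers from 6.47 to 6.89 and from 6.46 to 7.14. The means of 6 endothelial markers ran from 8.14 to 8.67 in carnitine and from 7.84 to 8.71 in control mice, and those of 6 fibroblast markers from 8.10 to 8.72 and from 7.72 to 8.53. Their part in the values below was not tested. Erythrocyte genes had no probe set of their own. Control replicate 5 stood apart, since the central quartiles of its values spanned 2.20, where that span was 2.46 to 2.59 for the carnitine arrays and 2.39 to 2.54 for controls 1 to 4. In whole muscle, fewer cells of a type and less RNA per cell cannot be told apart.

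No subunit gene differed between the diets after adjustment for multiple tests. Of the 40 genes, 33 had a positive and 7 a negative difference, with a median of 0.10 and a range from -0.32 to 0.36. Over all 22180 genes 47.7% were positive, but the share moved with signal. It was 82.6% among the 3721 genes with a mean level of at least 8 (median difference 0.10), 77.8% and 71.9% among those of at least 10 and 12, and 26.7% among the 9263 genes below 5.8. The 82.5% of positive subunit genes is near the share among all genes with a mean level of at least 8. The median of the subunit genes' mean levels was 10.38. Of the 40, 38 were brighter than 6, and among all genes of at least 6 the share was 65.8%. No gene passed limma's adjusted p of 0.05 (0% of all genes did), and the smallest adjusted p among the subunits was 0.712. At an unadjusted p below 0.05, 0 subunit genes were higher and 1, Atp5j2, was lower, where the background over all genes was 3.14% higher, 3.83% lower and 6.97% in either direction. In none of the 40 did the diet groups separate fully, against 0.505% of all genes with every carnitine mouse above every control and 0.609% with every one below. The 95% interval lay wholly inside a 1.5-fold difference either way for 33 of the 40 genes (94.4% of all genes), and inside a 1.2-fold difference for 4 (21.2%). The count of positive genes was 23 after cyclic loess between arrays, 29 after quantile normalization and 26 without control replicate 5.

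**Figure D1:**
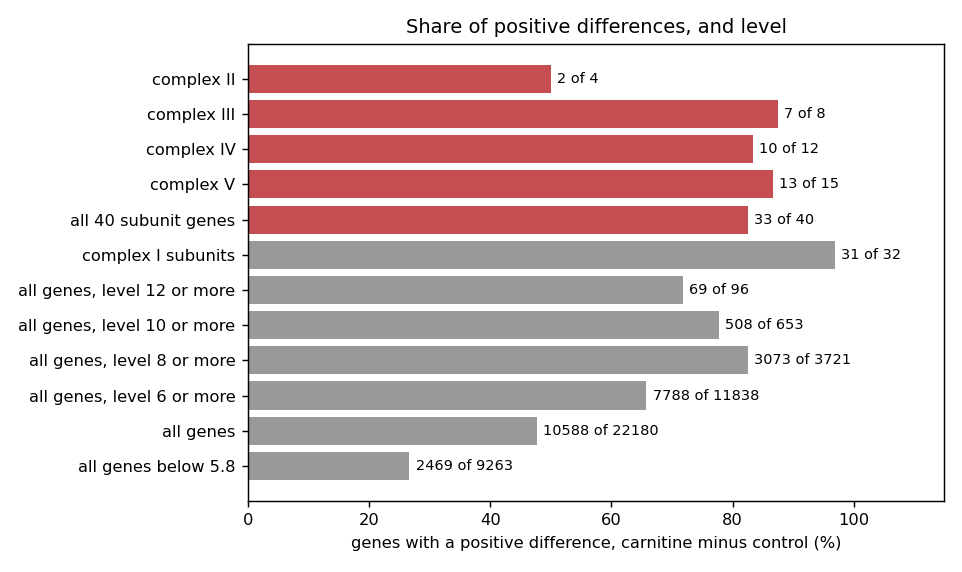
Percentage of genes with a positive difference (carnitine minus control) on the x axis, for each complex, all 40 subunit genes, the complex I subunits and all genes above or below given mean log2 levels (bars from 0, with counts beside them). The 33 of 40 subunit genes lie near the 3073 of 3721 among all genes at a level of 8 or more.

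**Figure D2:**
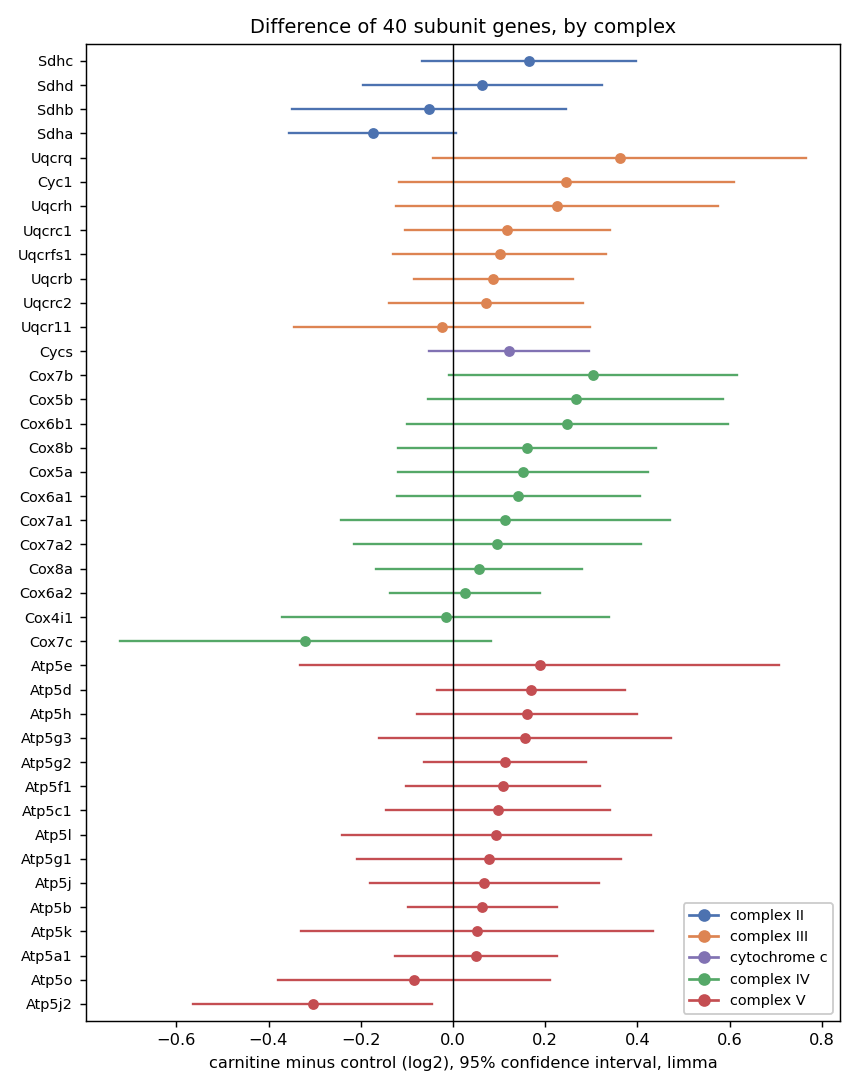
Difference between carnitine and control mice (x axis, log2) for 40 subunit genes, one per row and coloured by complex, as points with 95% confidence intervals from limma (n = 5 mice per diet). The intervals of all genes but Atp5j2 include 0.

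Complex II gave no shift in one direction, with 2 positive and 2 negative differences and a median of 0.01. Sdha, the flavoprotein that holds the succinate-binding site, read 12.02, 11.96, 12.08, 12.12 and 11.81 in carnitine mice 1 to 5, against 12.34, 11.99, 12.17, 12.22 and 12.14 in control mice 1 to 5. Carnitine mice 2 and 5 lay below every control and the other 3 lay within the control range. Sdha averaged 12.00 ± 0.12 in carnitine and 12.17 ± 0.13 in control mice (SD, n = 5 each), a difference of -0.17 (SE 0.085, limma adjusted p = 0.712), and it stayed negative, from -0.26 to -0.12, under every alternative tried. Sdhb, the iron-sulphur subunit, read 10.59, 10.51, 10.85, 10.73 and 10.14 in carnitine mice, against 10.86, 10.47, 10.43, 10.91 and 10.41 in controls. Carnitine mouse 5 lay below every control, control mice 1 and 4 lay above every carnitine mouse, and the others overlapped. The difference was -0.05 (SE 0.14), a sign that turned in 3 of 10 omissions of an array, at most to 0.05 without carnitine replicate 5. Sdhc and Sdhd are the membrane anchors that bind ubiquinone. Sdhc read 10.38, 10.23, 10.50, 10.44 and 10.12 in carnitine mice, against 10.41, 10.17, 10.01, 10.33 and 9.92 in controls (difference 0.17, SE 0.11). Sdhd read 10.39, 10.48, 10.74, 10.71 and 10.19, against 10.42, 10.47, 10.19, 10.75 and 10.36 (difference 0.06, SE 0.12). For Sdhc, carnitine mice 3 and 4 lay above every control and control mice 3 and 5 lay below every carnitine mouse. For Sdhd the groups overlapped, and its sign turned after cyclic loess (-0.04). Of 4 complex II assembly factors, 2 were positive. Higher at an unadjusted p below 0.05 were 3.14% of all genes and 606 of the 11838 with a mean level of at least 6. Of the 4 assembly factors 1, Sdhaf3, was among them. This factor, which helps to mature the iron-sulphur subunit, averaged 6.31 ± 0.17 in carnitine and 6.06 ± 0.15 in control mice (SD, n = 5 each), with a limma adjusted p of 0.712. The factor that aids flavin attachment to Sdha, Sdhaf2, differed by 0.13 (SE 0.096).

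Complex III had 7 of 8 positive differences and a median of 0.11, with 0 genes at an unadjusted p below 0.05. The median was 0.072 without control replicate 5 and 0.02 after cyclic loess. Uqcrq, a small supernumerary subunit, had the largest difference of the complex and read 7.38, 7.24, 7.27, 7.37 and 6.56 in carnitine mice, against 7.30, 6.89, 6.67, 6.92 and 6.23 in controls. Of the carnitine mice 2 lay above every control, 1 lay below 4 of the 5, and the difference was 0.36 (SE 0.19, limma adjusted p = 0.719). Cyc1, the haem-bearing cytochrome c1, read 10.19, 10.04, 10.34, 10.37 and 9.61 in carnitine mice, against 10.26, 9.88, 9.89, 9.99 and 9.30 in controls. Its difference was 0.25 (SE 0.17), and the lowest mouse of each diet was replicate 5. Uqcrh, the hinge protein that aids the contact with cytochrome c, read 9.43, 9.43, 9.63, 9.60 and 9.08, against 9.66, 9.12, 9.19, 9.44 and 8.63, a difference of 0.23 (SE 0.16) with the highest mouse a control. Without control replicate 5 the difference of Uqcrq was 0.22, that of Cyc1 0.105 and that of Uqcrh 0.0815. Uqcr11, another small subunit, was the only negative one. It read 7.85, 7.65, 7.89, 7.92 and 7.52 in carnitine mice, against 8.25, 7.63, 7.78, 7.98 and 7.31 in controls. The carnitine values lay inside the control range, and the difference of -0.02 (SE 0.15) turned positive after median centring (0.03). The core proteins Uqcrc1 and Uqcrc2, the Rieske iron-sulphur protein Uqcrfs1 and Uqcrb differed by 0.12, 0.07, 0.10 and 0.09. Of 6 complex III assembly factors 4 were positive, or 2 after cyclic loess and 3 after quantile normalization, with Ttc19 at 0.17 (SE 0.11) and Lyrm7, a chaperone of the Rieske protein, at -0.13 (SE 0.14). Cytochrome c itself, the mobile carrier between complexes III and IV, read 12.46, 12.44, 12.46, 12.47 and 12.50 in carnitine mice, against 12.48, 12.46, 12.10, 12.42 and 12.26 in controls. All carnitine mice lay above control mice 3, 4 and 5, and control mice 1 and 2 lay within the carnitine range. Cycs differed by 0.12 (SE 0.081, limma adjusted p = 0.730), and 4 further probe sets of Cycs gave 0.07 to 0.37.

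Complex IV had 10 of 12 positive differences and a median of 0.13, which was 0.07 without control replicate 5 and 0.03 after cyclic loess. Cox7b, a small subunit encoded on the X chromosome, had the smallest p of the complex and read 10.46, 10.48, 10.74, 10.69 and 10.33 in carnitine mice, against 10.60, 10.28, 10.12, 10.48 and 9.70 in controls. Carnitine mice 3 and 4 lay above every control, and the difference was 0.30 (SE 0.15, limma adjusted p = 0.712). Without control replicate 5, its lowest mouse, it was 0.17. The other Cox7b probe set, dimmer at a mean level of 6.74, gave 0.09. Cox5b, a subunit on the matrix side, read 11.44, 11.36, 11.45, 11.55 and 10.99 in carnitine mice, against 11.53, 10.99, 10.88, 11.36 and 10.70 in controls, a difference of 0.27 (SE 0.15). A second and dimmer Cox5b probe set, at a mean level of 4.89, gave -0.09. Cox7c had the lowest difference of the complex. It read 5.77, 5.56, 6.29, 5.66 and 5.14 in carnitine mice, against 5.62, 6.22, 5.73, 6.29 and 6.16 in controls, a difference of -0.32 (SE 0.19, limma adjusted p = 0.721). The Cox7c probe set averaged 5.84, close to the median probe set level, where the signal is weak and most genes had negative differences. The remaining measured subunits were Cox6b1 (0.25), Cox5a (0.15) and Cox4i1 (-0.02), the last of which binds ATP as a regulatory subunit.

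Subunits 6a, 7a and 8 of complex IV each have an isoform of heart and skeletal muscle (Cox6a2, Cox7a1 and Cox8b) and a broadly expressed one (Cox6a1, Cox7a2 and Cox8a). Cox6a2 read 12.59, 12.52, 12.57, 12.66 and 12.45 in carnitine mice, against 12.60, 12.49, 12.46, 12.70 and 12.41 in controls. Cox6a1 read 10.33, 10.32, 10.68, 10.65 and 10.26, against 10.16, 10.23, 10.19, 10.73 and 10.22. In both the highest mouse was control 4, and the differences were 0.03 (SE 0.076) and 0.14 (SE 0.12). Cox7a1 read 11.75, 11.46, 11.86, 11.89 and 11.12 in carnitine mice, against 11.99, 11.47, 11.35, 11.60 and 11.10 in controls, and Cox7a2 read 9.64, 9.74, 9.85, 9.88 and 9.29, against 9.89, 9.39, 9.63, 9.84 and 9.17. Replicate 5 was the lowest mouse of each diet for both genes, and the differences were 0.11 (SE 0.17) and 0.10 (SE 0.15). Without control replicate 5 they were 0.0135 and -0.0075. Cox8b read 11.40, 11.30, 11.45, 11.67 and 11.06 in carnitine mice, against 11.58, 11.04, 11.18, 11.36 and 10.92 in controls, a difference of 0.16 (SE 0.13). Cox8a read 9.08, 9.17, 9.37, 9.35 and 9.02, against 9.17, 9.00, 8.92, 9.33 and 9.29, a difference of 0.06 (SE 0.10). Control mouse 5 was the lowest mouse for Cox8b and among the upper mice for Cox8a. The signs of Cox6a2, Cox7a2 and Cox8a turned after cyclic loess.

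Whether the diets moved the muscle isoform relative to the broad one was tested on the difference between both probe sets within each array, which depends on the probes and is not a ratio of transcripts. Cox6a2 minus Cox6a1 averaged 2.11 ± 0.15 in carnitine and 2.23 ± 0.17 in control mice (SD, n = 5 each), a change of -0.12 (SE 0.10, two-sided exact permutation p = 0.286). Cox7a1 minus Cox7a2 averaged 1.94 ± 0.16 in carnitine and 1.92 ± 0.18 in control mice, a change of 0.02 (SE 0.11, exact permutation p = 0.857). Cox8b minus Cox8a averaged 2.18 ± 0.13 in carnitine and 2.07 ± 0.29 in control mice, a change of 0.10 (SE 0.14, exact permutation p = 0.516). After Benjamini-Hochberg adjustment over the 3 pairs these exact p-values were 0.774, 0.857 and 0.774, and the smallest p that 5 against 5 mice allow is 0.00794. None of the changes exceeded the spread between mice. The sign of the Cox7a pair turned in 5 of 10 omissions of an array and that of the Cox8 pair without control replicate 5 (-0.01).

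**Figure D3:**
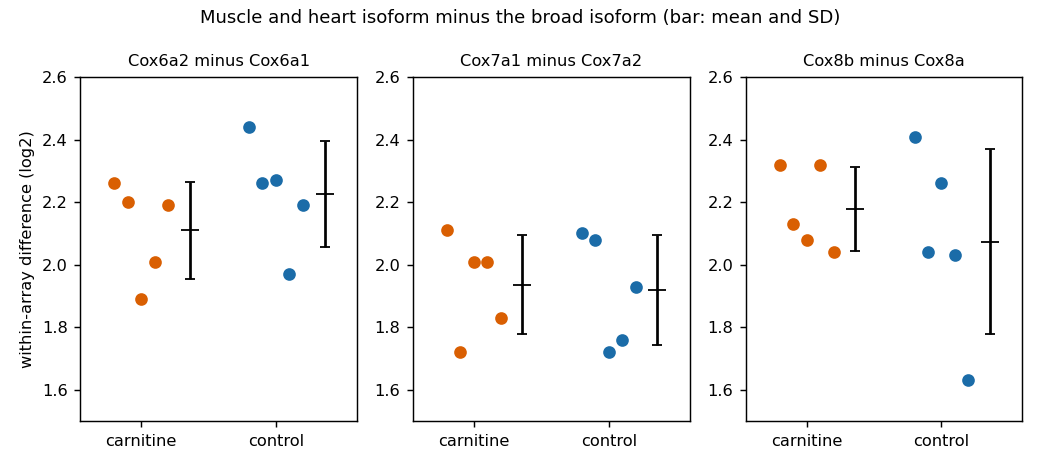
Within-array difference between the probe sets of the muscle isoform and the broad isoform (y axis, log2) for 3 subunits of complex IV, with 1 point per mouse in carnitine (left) and control (right) and the mean and SD beside them. The groups overlap in every pair.

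Of 18 measured complex IV assembly factors, 17 had a positive difference (median 0.13) and 2, Cox18 and Taco1, an unadjusted p below 0.05. The number positive was 11 after cyclic loess and 13 after quantile normalization. Among all 3721 genes with a mean level of at least 8, 82.6% were positive. Of those 3721, 309 were higher at an unadjusted p below 0.05, a larger share than the 3.14% of all genes. Cox18, which inserts part of the mitochondrially encoded Cox2 into the membrane, read 8.52, 8.44, 8.53, 8.44 and 8.48 in carnitine mice, against 8.25, 8.35, 8.25, 8.28 and 8.02 in controls. Every carnitine mouse lay above every control, as in 0.505% of all genes and in 49 of the 3721 at a level of 8 or more. The Cox18 difference was 0.25 (SE 0.082, limma adjusted p = 0.712). Taco1, a translational activator of the mitochondrially encoded Cox1, differed by 0.20 (SE 0.086, adjusted p = 0.712). Among 5 rare isoforms and homologues of complex IV subunits, 4 were negative, with Cox6b2 of testis at -0.17 (SE 0.10) and Cox7b2 at -0.12 (SE 0.12), and 3 of the 5 averaged below 5.8.

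Complex V had 13 of 15 positive differences and a median of 0.09, and it held the gene with the smallest p of all 40. The median was 0.0025 without control replicate 5 and 0.004 after cyclic loess. Atp5j2, subunit f of the membrane part, read 5.07, 5.28, 5.39, 5.06 and 4.77 in carnitine mice, against 5.47, 5.23, 5.31, 5.44 and 5.64 in controls. Carnitine mice 1, 4 and 5 lay below every control, and the difference was -0.30 (SE 0.12, limma adjusted p = 0.712). It was the only subunit gene with a mean below 5.8, and its highest value came from control replicate 5. Without that array the difference was -0.25. Atp5d, the delta subunit of the catalytic head's central stalk, read 9.45, 9.58, 9.72, 9.61 and 9.24 in carnitine mice, against 9.31, 9.33, 9.30, 9.50 and 9.31 in controls. Carnitine mice 2, 3 and 4 lay above every control and mouse 5 below, with a difference of 0.17 (SE 0.095, adjusted p = 0.721), and a second Atp5d probe set gave 0.37. Atp5h, subunit d of the peripheral stalk, read 12.03, 11.88, 12.01, 12.11 and 11.84 in carnitine mice, against 12.19, 11.93, 11.63, 11.77 and 11.55 in controls. The highest mouse was a control and the difference was 0.16 (SE 0.11). The other Atp5h probe set, dimmer at a mean level of 7.02, gave 0.06.

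Of the catalytic head of complex V, Atp5a1 and Atp5b, the alpha and beta subunits that form the catalytic sites, averaged 12.99 ± 0.15 and 12.97 ± 0.11 in carnitine mice, against 12.94 ± 0.08 and 12.91 ± 0.09 in control mice (SD, n = 5 each). Their differences of 0.05 and 0.06 had standard errors of 0.082 and 0.075, and the 95% interval of Atp5b ran from -0.10 to 0.23. The gamma and epsilon subunits Atp5c1 and Atp5e differed by 0.10 (SE 0.11) and 0.19 (SE 0.24), and the interval of Atp5e ran from -0.33 to 0.71. Atp5e had an SD of 0.34 in carnitine and 0.61 in control mice, the widest of the 15 genes in the control group, and its second, dimmer probe set gave -0.08. The 3 genes of the proton-carrying c ring, Atp5g1, Atp5g2 and Atp5g3, encode the same mature protein and differed by 0.08, 0.11 and 0.16. A second Atp5g2 probe set gave 0.08. Of the peripheral stalk, Atp5f1 differed by 0.11, Atp5j by 0.07 and Atp5o, which tops the stalk, by -0.08 (SE 0.14). The small membrane subunits Atp5k and Atp5l, which hold ATP synthase dimers together, differed by 0.05 and 0.09. All 6 genes of assembly and regulation were positive, or 4 after cyclic loess and after quantile normalization. Of all genes 3.14% were higher at an unadjusted p below 0.05, as were 606 of the 11838 with a mean level of at least 6. The coupling factor B gene Atp5s was the 1 of the 6 with such a p. It averaged 8.02 ± 0.12 in carnitine and 7.62 ± 0.31 in control mice (SD, n = 5 each; difference 0.40, SE 0.13, limma adjusted p = 0.712). Atpaf2, a chaperone of the alpha subunit, differed by 0.19 (SE 0.12).

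Over whole complexes, the spread between mice of a group was wider than the difference between the diets. The mean level over complex II was 10.85, 10.80, 11.04, 11.00 and 10.56 in carnitine mice 1 to 5, against 11.01, 10.78, 10.70, 11.05 and 10.71 in control mice 1 to 5. Over complex III it was 9.97, 9.86, 10.04, 10.04 and 9.57, against 10.07, 9.73, 9.65, 9.88 and 9.42. Over complex IV it was 10.38, 10.33, 10.57, 10.56 and 10.05, against 10.52, 10.21, 10.18, 10.48 and 10.00. Carnitine mouse 5 was the lowest and mice 3 and 4 the highest of their group in each of these complexes. Over complex V the mean was 9.75, 9.70, 9.85, 9.84 and 9.43, against 9.89, 9.58, 9.63, 9.75 and 9.38. The group means of complexes II, III, IV and V differed by 0.00, 0.15, 0.10 and 0.07, and the SD within a group was 0.17 to 0.24. These means are given as a description with no test.

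**Figure D4:**
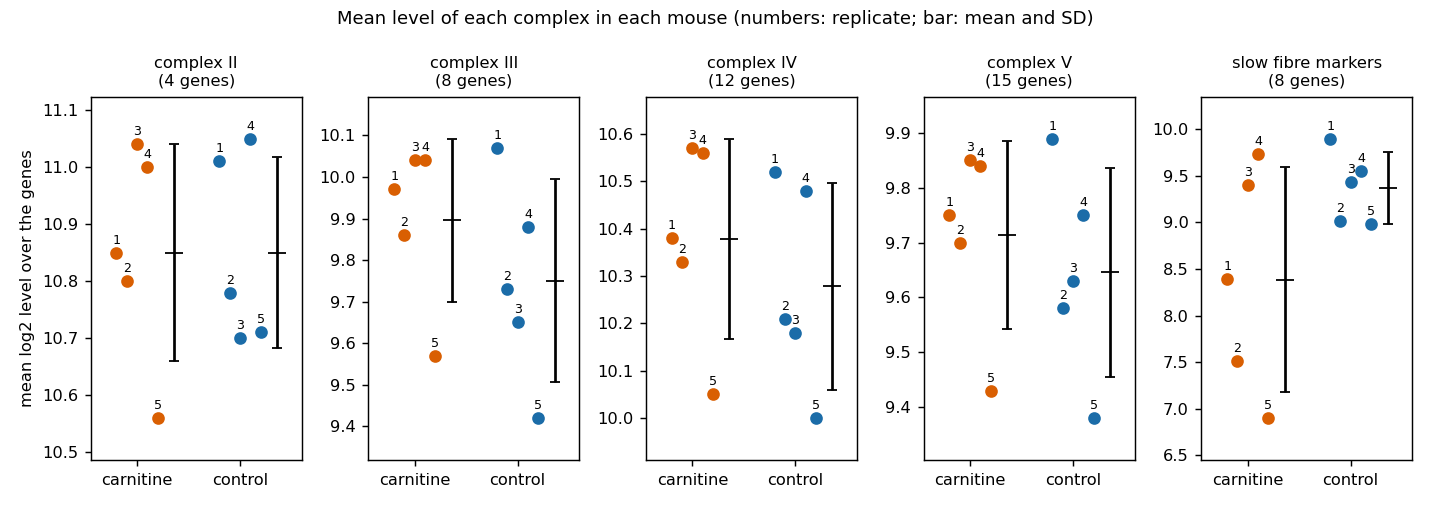
Mean log2 level over the genes of each complex and over 8 slow-fibre markers (y axis) in each mouse, carnitine left and control right, with replicate numbers beside the points and the mean and SD as bars. Carnitine mouse 5 is the lowest carnitine mouse in every panel, and control mouse 1 or 4 is the highest control.

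Many of the genes had their lowest and highest values in the same few mice. In 39 of the 40 genes carnitine mouse 5 had the lowest value of its group, against 22.5% of all genes and 33.7% of genes at a level of 8 or more. The exception was Cycs, in which it was the highest. In 29 genes control mouse 1 had the highest control value, against 15.5% of all genes and 24.0% of the bright ones, and in 27 control mouse 5 had the lowest, against 27.4% and 57.4%. The lowest of all 10 values came from a mouse numbered 5 in 34 genes, against 30.7% of all genes and 59.0% of the bright ones. Control mouse 5 was the lowest in 21 of the 40 genes (52.5%), near the 51.9% of the bright ones and against 22.5% of all genes. Carnitine mouse 5 was the lowest in 13, against 8.2% of all genes. The highest value came from control mouse 1 in 15 genes, carnitine mouse 3 in 12 and carnitine mouse 4 in 5. For these 3 arrays together the shares were 21.4% of all genes and 31.7% of the bright ones. The subunit genes share the arrays, so they are not independent of each other.

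**Figure D5:**
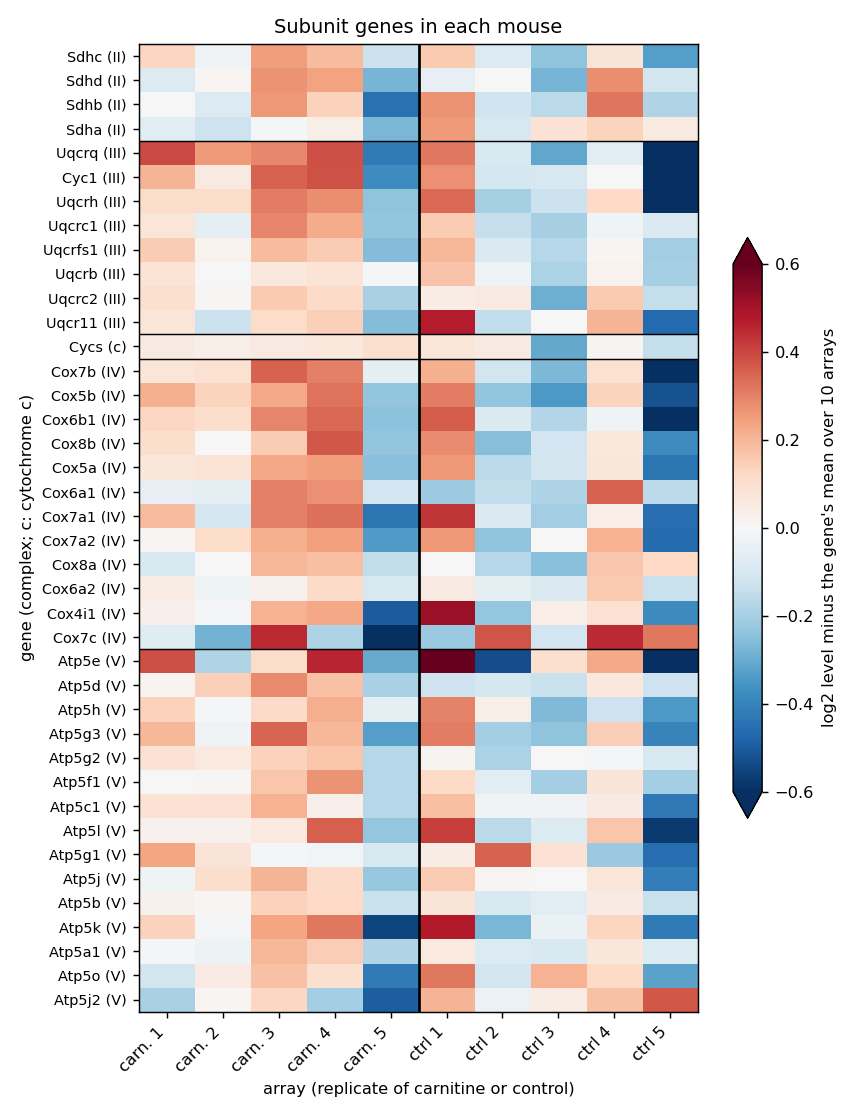
Log2 level of each of 40 subunit genes (rows, by complex) in each mouse (columns, carnitine left and control right) as the deviation from the gene's mean over the 10 arrays, with red above and blue below and colours capped at the ends of the scale. Carnitine mouse 5 and control mouse 5 are blue in most rows, while Cox7c, Atp5j2, Cox8a and Sdha lie above their mean in control mouse 5.

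Markers of slow fibres were set beside the subunit means mouse by mouse. The mean level of 8 slow-fibre genes, among them the slow myosin Myh7 and the slow troponins, was 8.39, 7.51, 9.40, 9.73 and 6.90 in carnitine mice 1 to 5, against 9.90, 9.01, 9.43, 9.55 and 8.98 in control mice 1 to 5. In carnitine mice the order from low to high was 5, 2, 1, 3, 4 for these markers and 5, 2, 1, 4, 3 for complexes II, IV and V. In control mice it was 5, 2, 3, 4, 1 for the markers and for complex V, and 5, 3, 2, 4, 1 for complexes III and IV. Complex II departed from this in control mice, with the order 3, 5, 2, 1, 4. Between the diets they went apart: the slow-fibre mean differed by -0.99, with 7 of 8 genes negative and 5 of these at an unadjusted p below 0.05, while the mean of the 40 subunit genes differed by 0.09. The slow-fibre median was -1.05, or -0.69 without carnitine replicate 5. Over all genes 3.83% were lower at an unadjusted p below 0.05. The part of fibre makeup in the subunit values was not tested. Leaving out the array of mouse 5 in both groups gave 35 of 40 positive subunit genes and medians of 0.06, 0.16, 0.14 and 0.09 for complexes II, III, IV and V.

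No gene of the other pathway lists passed the adjusted threshold. As a background, 82.6% of all genes with a mean level of at least 8 were positive, and 77.8% of those of at least 10. An unadjusted p below 0.05 in limma was reached by 6.97% of all genes. Of 32 measured nuclear subunits of complex I, which oxidises NADH, 31 were positive with a median of 0.12, and 0 had an unadjusted p below 0.05. Ndufa12 stood at 0.20 (SE 0.11) and Ndufb11 at 0.35 (SE 0.20), and the count of positive genes was 19 after cyclic loess and 23 after quantile normalization or without control replicate 5. Of 13 tricarboxylic acid cycle enzymes outside complex II, 11 were positive with a median of 0.08, or 6 after cyclic loess and 7 after quantile normalization. The succinyl-CoA ligase subunit Suclg1, which makes the substrate of complex II, stood at 0.19 (SE 0.097) and fumarase Fh1, which uses its product, at 0.17 (SE 0.11). Of 10 regulators of respiratory chain genes 8 were positive, or 4 after cyclic loess and 5 after quantile normalization or without control replicate 5, and 0 had an unadjusted p below 0.05. The mitochondrial transcription factor Tfb2m stood at 0.22 (SE 0.11), Nrf1 at 0.11 (SE 0.085) and the coactivator Ppargc1a at 0.01 (SE 0.12).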

How the data were processed

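The authors deposited log2 expression values of 34390 probe sets on 10 arrays, made with RMA in Affymetrix Expression Console per the submitters' processing notes. RMA subtracts background, is meant to bring arrays to a shared distribution and summarises probes. Differences in total RNA therefore cannot be seen, and dim differences shrink. The deposited arrays did not fully share a distribution, as their medians ran from 5.72 in carnitine 1 to 5.96 in control 5. Software versions and the genome build were not given in the sources used here. The platform annotation gave 1 symbol to 23521 probe sets, several to 1814 and none to 9055. Of 1082 genes with more than 1 probe set the one with the highest mean was kept, 7 subunit genes among them, which left 22180 genes.

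Diets were compared with limma 3.58.1 in R 4.3.3 (lmFit, eBayes with a mean-variance trend), two-sided, with Benjamini-Hochberg adjustment over all genes at 0.05 and no filter on dim genes. The fit was tested on simulated data. Isoform pairs were tested by exact permutation over all 252 assignments. The number of arrays limits the precision: over the subunit genes the standard error had a median of 0.125, and the 95% interval reached a median of 0.267 to either side. Each array is counted as 1 mouse.

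The subunit genes, lists and motifs were chosen with earlier results of these data known. Values in every mouse are given for complex II, Cycs, the isoform pairs and, in complexes III to V, the 3 genes with the smallest p and the lowest difference, and for Cox18, whose groups did not overlap. Of each further pathway list up to 2 genes with the smallest p, and Ppargc1a, are named by their difference or means. Genes picked after their values were seen are Idh2 and Perm1. Alternatives were a replicate block, median centring, cyclic loess, quantile normalization, omission of dim genes, 2 other variance models, array weights, averaging over all probe sets of a gene, omission of each array and, added after the data were seen, omission of both arrays numbered 5.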

Additional observations from a re-analysis of the deposited data

Results flagged for a closer look

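In 88 groups of 5 values, 2 for each of the 40 subunit genes and 4 complex means, 4 had a mouse whose gap to the nearest other exceeded the 95% limit of Dixon's gap test, which chance gives in about 1 in 20 groups. Uqcrq read 6.56 in carnitine mouse 5, against 7.24 to 7.38 in the other carnitine mice. Cox6a1 read 10.73 in control mouse 4, against 10.16 to 10.23 in the other controls, and Atp5d read 9.50 in the same mouse, against 9.30 to 9.33. Atp5j read 7.76 in control mouse 5, against 8.18 to 8.33 in the other controls.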

How the results depend on the processing

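No subunit gene passed the adjusted threshold under any alternative tried, and the smallest adjusted p of a subunit gene in limma ranged from 0.381 (Atp5j2 without control replicate 2) to 0.933. The number at an unadjusted p below 0.05 was 1 in the deposited values (6.97% of all genes). It was 2 after quantile normalization (5.55% of all genes), with robust estimation (6.85%) and when all probe sets of a gene were averaged (6.82%). Without both arrays numbered 5 it was also 2 (5.06%), and with array weights it was 0 (6.46%). Over the omission of single arrays it ranged from 0 to 8. It was 0 when control 5 was omitted (5.55% of all genes), 8 for control 1 (6 higher and 2 lower, 8.15% of all genes), 6 for carnitine 5 (all higher, 5.83%), 3 for control 4 (2 higher and 1 lower, 5.17%), and 2, both lower, for control 2 (11.5%), carnitine 3 (5.22%) or carnitine 4 (6.66%). With the replicate block it was 7, of which 5 were higher and 2 lower, where 8.12% of all genes passed. The labels do not say whether the replicate numbers pair the mice. The correlation of deviations of same-numbered arrays ran from -0.13 to 0.24. Differently numbered arrays were not set beside it, so it does not settle whether the numbers pair the mice. The number of positive subunit genes ranged from 26 to 37 over the omissions.

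The median of complex II turned to -0.094 after cyclic loess and -0.064 after quantile normalization, and ranged from -0.0595 to 0.098 over the omissions. Those of complexes III, IV and V kept their sign, at 0.02, 0.03 and 0.004 after cyclic loess, and ranged from 0.07 to 0.19, from 0.07 to 0.21 and from 0.0025 to 0.164 over the omissions, lowest in complexes III and V without control replicate 5. Uqcr11 turned to 0.026 after median centring. After cyclic loess Sdhd was -0.037, Cox6a2 -0.054, Cox7a2 -0.0098 and Cox8a -0.049, and after quantile normalization Cox6a2 was -0.0058 and Cox8a -0.0355. Sdhb was 0.0025 without both arrays numbered 5. Over the omissions Sdhb ranged from -0.1235 to 0.054, Uqcr11 from -0.144 to 0.091, Cox6a2 from -0.0045 to 0.068 and Cox7a2 from -0.0075 to 0.1935. The change in Cox6a2 minus Cox6a1 ranged from -0.18 to -0.061, in Cox7a1 minus Cox7a2 from -0.0315 to 0.072 and in Cox8b minus Cox8a from -0.007 to 0.188. Over all genes 1546 had an unadjusted p below 0.05 and 844 when dim genes were left out, where fewer genes were tested, with a range from 1115 to 2560 over the omissions, and 0 or, without control replicate 2, 1 passed the adjusted threshold. The cause of these changes was not tested otherwise. Probe sets near the floor limit what can be seen in Cox7c and Atp5j2.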

Other observations

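Outside the subunit genes, 2 genes of mitochondrial metabolism were picked after their values were seen because they spread widely between mice. Idh2, the mitochondrial NADP-dependent isocitrate dehydrogenase, read 11.27, 10.46, 11.49, 11.68 and 10.31 in carnitine mice 1 to 5, against 11.83, 11.08, 10.88, 11.91 and 10.78 in control mice 1 to 5. Its difference was -0.25 (SE 0.28, limma adjusted p = 0.812), and carnitine mice 2 and 5 lay below every control. Perm1, a muscle regulator of oxidative genes, read 10.42, 10.14, 10.69, 10.46 and 9.64, against 10.58, 10.11, 9.66, 10.56 and 9.72, a difference of 0.14 (SE 0.21, limma adjusted p = 0.857). Replicate 5 was the lowest carnitine mouse for both genes, as it was for 39 of the 40 subunit genes.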
